A study of Homo sapiens with 4 samples.

Results

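A375 melanoma cells made resistant to vemurafenib plus cobimetinib (RVC) were compared with untreated, drug-sensitive A375 cells (S) by single-cell RNA sequencing. A barcode counted as a cell if 500 or more genes were detected in it and no more than 20% of its UMIs came from mitochondrial genes, a UMI (unique molecular identifier) being 1 counted molecule of transcript. This rule kept 8307 RVC cells and 6693 S cells, 15000 of the 28640 cells that it kept in the 4 libraries of the study. A375 is an established human melanoma line with a mutant BRAF kinase. All cultures grew in RPMI medium with fetal calf serum. S received no inhibitor. RVC cells had been kept for 10 to 14 days in sub-IC50 doses of vemurafenib, which inhibits BRAF, and cobimetinib, which inhibits the kinases MEK1 and MEK2, and both inhibitors were taken away 24 h before capture. The other libraries, given beside these, came from cells resistant to vemurafenib alone (RV) and from cells resistant to vemurafenib plus the MEK1/2 inhibitor trametinib (RVT), with the same times. Each condition was 1 culture and 1 library (10x Genomics Chromium v2, 10000 cells loaded), so that no spread between replicates exists, no test between the conditions was possible, and the data describe these 2 libraries. Of the pigment cell genes that define melanocytes, TYR had 0 UMIs in S and in RVC, MLANA had 1 UMI in each, and DCT had 2 UMIs in S and 0 in RVC. TYRP1, given with the lineage genes below, was low in S and higher in RVC.

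In melanoma with a mutant BRAF, the kinase cascade from BRAF through MEK to ERK is constantly active and drives cell division. ERK switches on transcription factors, cyclins and a set of genes whose products dampen the cascade again, such as the DUSP phosphatases and the Sprouty proteins. Some melanoma cells that survive inhibition of the cascade are known to leave the neural crest lineage program led by SOX10, to take up other receptor tyrosine kinases, and to make extracellular matrix and inflammatory mediators. The paper also cites work in which cells under a BRAF inhibitor gained signatures of neural crest stem cells.

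Several of the gene groups described here are known to be read through short promoter elements, and 7 promoters with the letters of such an element are shown. The sequences are from RefSeq (GRCh38.p14), written 5′ to 3′ on the gene's strand from 150 bases before to 30 bases after the annotated start, with every match to the motif in capitals. The motifs were searched on both strands in a window from 250 bases before to 50 bases after the start. The letters TTTGAA are the core of the cell cycle homology region known from genes of the G2 phase and mitosis. They were found in 19 of the 29 G2/M genes that were measured and had a promoter entry, 65.5%, and in 1 of 21 G1/S genes, 4.76%, against 9.85% of the 5674 promoters of measured genes and 15.4% of all 27305 promoters. Below are the 5 G2/M genes with the largest difference between RVC and S among those with a match in the printed window: CKS2 (chr9:89311045-89311224, plus strand), BUB1B (chr15:40160919-40161098, plus), DLGAP5 (chr14:55191556-55191735, minus), NUSAP1 (chr15:41332731-41332910, plus) and KIF20B (chr10:89701440-89701619, plus).
CKS2: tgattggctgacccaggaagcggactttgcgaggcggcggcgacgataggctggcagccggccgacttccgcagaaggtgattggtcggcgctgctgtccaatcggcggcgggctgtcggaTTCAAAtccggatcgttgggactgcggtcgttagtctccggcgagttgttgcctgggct
BUB1B: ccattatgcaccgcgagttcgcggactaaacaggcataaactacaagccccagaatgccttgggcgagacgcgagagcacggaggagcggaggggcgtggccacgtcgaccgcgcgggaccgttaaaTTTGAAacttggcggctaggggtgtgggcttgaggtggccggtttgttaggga
DLGAP5: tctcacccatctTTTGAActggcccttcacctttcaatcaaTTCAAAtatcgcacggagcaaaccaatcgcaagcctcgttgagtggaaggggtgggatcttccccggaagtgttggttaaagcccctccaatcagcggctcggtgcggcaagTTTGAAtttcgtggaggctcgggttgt
NUSAP1: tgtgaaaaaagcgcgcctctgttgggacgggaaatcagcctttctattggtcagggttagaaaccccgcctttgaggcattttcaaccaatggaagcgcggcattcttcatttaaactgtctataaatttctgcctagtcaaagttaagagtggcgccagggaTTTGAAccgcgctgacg
KIF20B: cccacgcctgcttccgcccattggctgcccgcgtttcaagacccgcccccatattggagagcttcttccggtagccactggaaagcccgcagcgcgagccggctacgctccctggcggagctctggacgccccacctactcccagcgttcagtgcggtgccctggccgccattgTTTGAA
The letters TGATGNAA are those of the amino acid response element, at which ATF4 is known to act, and were found in 3 of 22 measured genes of the integrated stress response, 13.6%, against 1.45% of the promoters of measured genes and 3.67% of all promoters. The match of ASNS, asparagine synthetase (chr7:97872379-97872558, minus strand), begins 68 bases before the start.
ASNS: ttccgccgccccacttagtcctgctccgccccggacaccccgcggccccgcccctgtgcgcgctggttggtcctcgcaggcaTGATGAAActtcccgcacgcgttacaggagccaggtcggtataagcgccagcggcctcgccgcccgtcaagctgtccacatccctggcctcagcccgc
The letters TGANTCA are the AP-1 site, found in 3 of 13 measured inflammatory genes with an entry, 23.1%, against 4.71% and 7.76%. The 3 were IL11, IL1A and CXCL8, of which IL1A was lower and CXCL8 higher in RVC than in S. The match of CXCL8, the neutrophil chemokine interleukin 8 (chr4:73740419-73740598, plus strand), begins 137 bases before the start.
CXCL8: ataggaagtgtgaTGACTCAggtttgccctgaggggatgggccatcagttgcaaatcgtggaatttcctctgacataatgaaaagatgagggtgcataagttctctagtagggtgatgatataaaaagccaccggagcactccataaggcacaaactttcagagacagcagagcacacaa
A match describes these letters only, and whether a factor binds there was not measured.

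The S library held 63582691 UMIs in the cells kept and the RVC library 37311495. A median S cell had 8911 UMIs (quartiles 7174 and 11017) on 2117 genes, and a median RVC cell had 4099 UMIs (quartiles 2698.5 and 5759) on 1252 genes. UMIs were summed over the cells of a library and are given as CPM, the UMIs of a gene per 1000000 UMIs of that library. In such sums, fewer cells with a transcript and fewer transcripts per cell cannot be told apart, so the share of cells with a UMI is given beside the largest differences, after each cell was thinned to 1800 UMIs. Thinning left out 822 RVC cells with fewer UMIs and no S cell. No cell type in these cultures should lack the genes described, so free RNA in the droplets could not be measured. All intervals are exact 95% intervals and cover counting error only. A fold against a library with 0 UMIs is taken at a floor of 3 UMIs and is not the end of such an interval. The table of S listed 6695 barcodes, more than the number of S cells stated for the study, and the study names no cell thresholds. S and RVC shared 70 barcode sequences.

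The values of S and RVC were made with different gene annotations, and their ratio followed the GC content of the genes. Of 33694 identifiers in the S table and 33538 in the RVC table, 32991 were in both and were compared. A gene was counted as measured with at least 10 CPM in the library where it was higher, which 7071 genes were. Of these, 1761 were at least 2-fold higher in RVC (24.9%) and 1723 at least 2-fold lower (24.4%), and the median log2 ratio was 0.19. With TMM factors the counts were 1247 and 2045, without ribosomal protein and mitochondrial genes in the library sizes 1620 and 2424, and with median ratio factors 1183 and 2098, and the median moved to -0.08, -0.01 and -0.12. Differences smaller than these shifts have no settled direction. Across the measured genes, the log2 ratio of RVC over S had a Spearman correlation of -0.37 with the percent of G and C in the final 500 bases of the longest transcript. Genes share libraries, so this is a description with no p-value. In the bin richest in GC, 1 of 10, from 58% to 73.8%, 73.9% of 701 genes were at least 2-fold lower in RVC and 3.28% at least 2-fold higher. In the poorest bin, from 23.4% to 30.6%, 11.9% were lower and 35.3% higher.

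The trend was large between libraries counted on different annotations and small between libraries that shared one. RVT, counted on the annotation of RVC, had a correlation of -0.41 between GC content and its log2 ratio over S, whereas RV, counted on that of S, had 0.0051. RVC over RVT gave 0.13. Depth divided the libraries in the same way, with a median of 8911 UMIs a cell in S and 11648 in RV, against 4099 in RVC and 2951 in RVT. Barcodes with under 500 genes did so too, with 0 in S and in RV, 903 of 9266 in RVC and 1084 of 10427 in RVT. The annotation, the depth, the combined inhibitors and any other step in which RVC and RVT differed from S and RV cannot be told apart. For this reason many groups below, though not all, are also given after the log2 ratios were centred on the median of their bin, 1 of 10 by GC content. Centring left 17.7% of measured genes at least 2-fold higher and 24.0% at least 2-fold lower. A median given without a centred value still holds the GC trend.

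**Figure D1:**
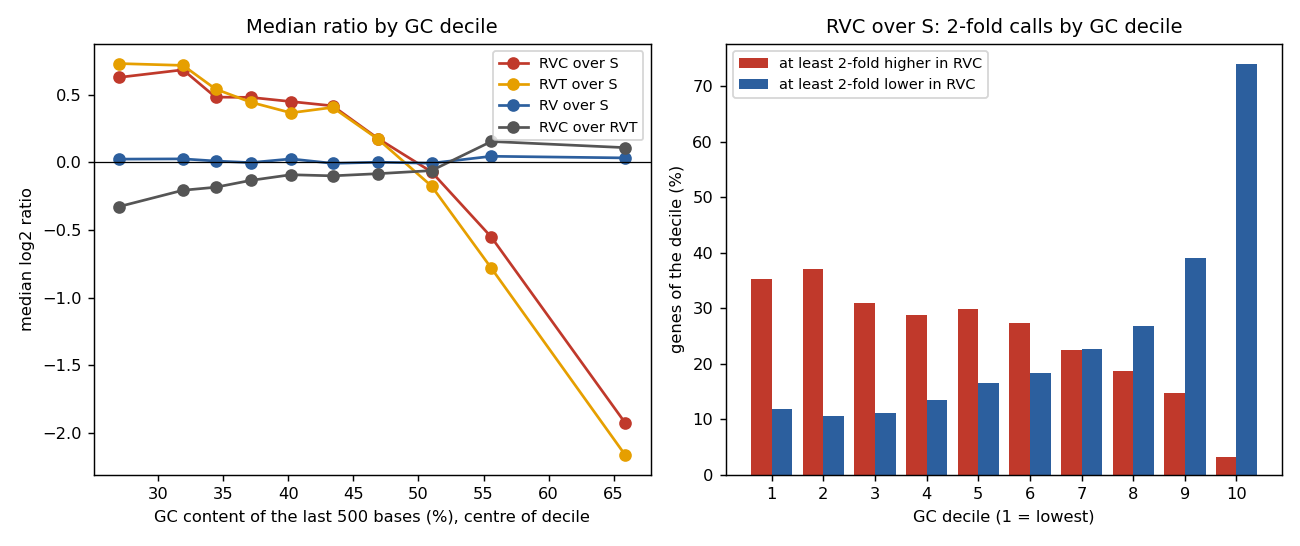
Left, the median log2 ratio of measured genes in 10 bins of about equal size of GC content of the transcript's last 500 bases, for RVC over S, RVT over S, RV over S and RVC over RVT. Right, the percent of genes at least 2-fold higher or lower in RVC than S in each bin. RVC over S runs from 0.63 in the GC-poorest bin to -1.93 in the richest, RVT over S runs alike, and RV over S stays near 0 throughout, from -0.01 to 0.05.

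The gene furthest above S was UTS2, which encodes the vasoactive peptide urotensin II (ENSG00000049247, chromosome 1, 7843083 to 7853512, minus strand, coordinates here and below from GENCODE 29 on GRCh38). It had 0.173 CPM in S (11 UMIs), 0.217 in RV, 1.63 in RVT and 7752 in RVC (289231 UMIs), 44807-fold (95% interval 25042 to 89759.8) above S. RVC alone was high, with a UMI in 87.1% of thinned RVC cells against 0.0747% of S cells, and free RNA, whose share was not measured, can add to such a share. The gene for another secreted peptide, NTS, neurotensin (chromosome 12, 85874295 to 85882992, plus strand), had 0.535 CPM in S, 0.0543 in RV, 0.555 in RVT and 679 in RVC, 1270.3-fold (95% interval 909 to 1835), with a UMI in 42.8% of RVC cells. SUCNR1, the receptor for succinate (chromosome 3, 151873643 to 151884619, plus strand), had 0 UMIs in S, in RV and in RVT and 9506 in RVC, 255 CPM. Taken against a floor of 3 UMIs in the S library it was at least 5399.7-fold higher, and 27.4% of RVC cells held a UMI. A count of 0 in 6693 S cells allows a share of up to 0.0448%, a limit on cells with a UMI at this depth and not on cells that express the gene.

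A pair of matrix metalloproteinase genes on chromosome 11 was also among the genes furthest above S. MMP1, the interstitial collagenase (chromosome 11, 102789920 to 102798160, minus strand), had 3.08 CPM in S, 1.30 in RV, 1.80 in RVT and 1153 in RVC, 374-fold (95% interval 325 to 433). MMP3, stromelysin 1 (chromosome 11, 102835801 to 102843803, minus strand), had 2 UMIs in S and 10426 in RVC, 279 CPM, a ratio of 8884 with a counting interval of 2459 to 73364. The 2 genes were held unevenly by the RVC cells. MMP1 was in 51.9% of thinned cells and the 10% of cells richest in it held 60.8% of its UMIs, whereas MMP3 was in 17.7% and its richest 10% held 86.4%. For UTS2 the richest 10% held 45.7%, for NTS 61.9% and for SUCNR1 61.4%. COL3A1, a fibrillar collagen of connective tissue (chromosome 2, 188974320 to 189012746, plus strand), had 0 UMIs in S and RV, 7.39 CPM in RVT and 119 CPM in RVC, at least 2529-fold above S.

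The 15 genes with at least 50 CPM that lay furthest above S were ranked, and those after COL3A1, NTS and MMP1 were between 29.4-fold and 369-fold higher in RVC. ALOX5AP, which hands arachidonic acid to 5-lipoxygenase, had 0.267 and 98.6 CPM in S and RVC, 0.0904 in RV and 2.50 in RVT, and LRRC17, a secreted leucine-rich repeat protein, had 0.409 and 145 CPM. HAS2, which makes hyaluronan, had 1.18 and 115 CPM. TMEM158, a membrane protein known to be induced by RAS, had 7.55 and 275 CPM. These 4 genes lay between 1.25 and 5.55 CPM in RVT, far under RVC. SEPHS2, the selenophosphate synthetase needed for selenoproteins, behaved otherwise: it had 0.755 CPM in S and 55.6 in RVC, with 0.959 in RV and 55.2 in RVT, so both libraries counted on the annotation of RVC were high. SLC12A8, a transporter, was 120.1-fold higher and the noncoding LINC02265 65.8-fold. GEM, a small GTPase, was 29.4-fold higher.

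**Figure D2:**
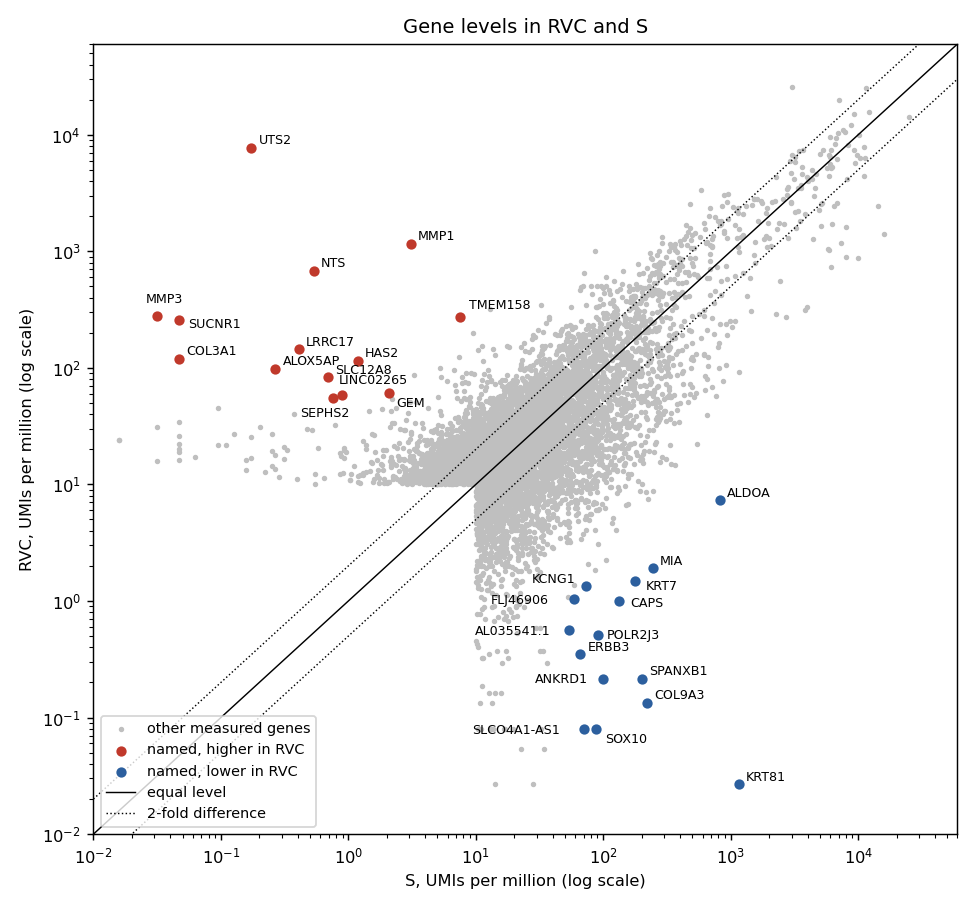
CPM of each measured gene in S (x axis) and RVC (y axis), both on a log scale, with genes of 0 UMIs drawn at 3 UMIs, a solid line at equal levels and dotted lines at 2-fold. Genes among the furthest above and below S with at least 50 CPM are named, with UTS2 at 0.173 and 7752 CPM and KRT81 at 1153 and 0.0268 CPM.

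On the other side, 11 genes with at least 10 CPM in S had no UMI in RVC, SOX10 first among them. SOX10, the transcription factor that holds neural crest and melanocyte identity (chromosome 22, 37970686 to 37987422, minus strand), had 5568 UMIs in S, 87.6 CPM, with 40.2 CPM in RV and 19.5 in RVT, and was at least 1089-fold lower in RVC. It was in 15.02% of thinned S cells, and 0 of 7485 RVC cells allows a share of up to 0.0401% with a UMI at 1800 UMIs a cell. Without thinning, SOX10 was in 50.2% of S cells and 0% of RVC cells. S100B, a calcium-binding protein of the same lineage, had 2072 UMIs in S and 0 in RVC, at least 405-fold lower, with 6.86 CPM in RV and 0.277 in RVT. The noncoding SLCO4A1-AS1 was at least 876-fold lower and had 3 UMIs in RVT. PXDN, a peroxidase that crosslinks collagen IV, had 13.7 CPM in S, 15.8 in RV, 23.7 in RVT and no UMI in RVC, so that of the 4 libraries RVC alone lacked it. The same held for GAGE1, with 16.6, 58.8 and 232 CPM in S, RV and RVT. The remaining 6 were AC025470.2, MTRNR2L8, HLA-DRB5, PRSS33, ECE2 and ESM1, which had between 0 and 1.60 CPM in RVT. ECE2 overlaps on its strand a readthrough gene listed only in the RVC table.

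Conversely, 7 genes with at least 10 CPM in RVC had no UMI in S. Besides SUCNR1 and COL3A1 these were VCAM1, a leukocyte adhesion receptor (16.2 CPM in RVC), OGN, a small proteoglycan (20.2 CPM), IDO1, which degrades tryptophan (22.4 CPM), KCNE4, a potassium channel subunit (25.8 CPM), and SPINK6, a protease inhibitor (34.2 CPM). In RVT these 5 had 0.867, 0.139, 1.56, 0.277 and 0.243 CPM. Their shares in thinned RVC cells, 3.18% for VCAM1 to 4.72% for KCNE4, were low compared with that of UTS2.

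Among the 15 genes with at least 50 CPM that lay furthest below S, KRT81, a hair keratin (chromosome 12, 52285913 to 52291534, minus strand), had 73342 UMIs in S, 1153 CPM, 595 in RV, 92.1 in RVT and 1 UMI in RVC, a ratio of 43038 whose 95% interval begins at 7724. A UMI was in 46.3% of thinned S cells and in none of the RVC cells. Hair keratin genes are near copies of each other, so the counting can split their reads. COL9A3, a chain of collagen IX (chromosome 20, 62816244 to 62841159, plus strand), had 219.7 and 0.134 CPM in S and RVC, 1639-fold (95% interval 702 to 5049). MIA, a secreted protein of melanoma and cartilage, had 244 and 1.90 CPM with 103 CPM in RVT, and ERBB3, the receptor that binds neuregulins, had 66.01 and 0.348 CPM with 0.659 CPM in RVT. KRT7, a simple epithelial keratin, had 177 and 1.47 CPM, and ANKRD1, a target of YAP, 99.5 and 0.214 CPM. SPANXB1, a sperm protein of the cancer-testis group, had 200.1 CPM in S, 1300.2 in RV and 1849 in RVT against 0.214 in RVC, so that RVC stood apart from the other resistant cultures. CAPS, KCNG1, AL035541.1 and FLJ46906 were 135-, 54.4-, 94.9- and 56.2-fold lower. The folds of this paragraph are not GC-centred. KRT81, CAPS, MIA and KRT7 have from 58.2% to 61% GC, and centring made their differences smaller. The log2 ratio of CAPS went from -7.08 to -5.15, that of MIA from -7.00 to -5.07 and that of KRT7 from -6.91 to -4.98. ANKRD1 and ERBB3 went the other way, from -8.86 to -9.34 and from -7.57 to -8.02.

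The counts of 2 of these 15 genes touch the annotation. ALDOA, the glycolytic enzyme aldolase A, had 817 CPM in S and 1099 in RV against 7.32 in RVC and 3.40 in RVT, and overlaps AC093512.2, an identifier of the RVC table only. POLR2J3 had 90.7 and 0.509 CPM and overlaps 3 identifiers of the RVC table only, of which another POLR2J3 identifier held 166 CPM in RVC. Their low counts in RVC and RVT and the added identifiers go together, and what part the annotation has in them was not tested. Of the 65 measured genes that overlap, on the same strand, an identifier of only 1 table, 31 were at least 2-fold lower (47.7%) and 13 higher, with a median log2 ratio of -0.75 against 0.20 for the other 7006.

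**Figure D3:**
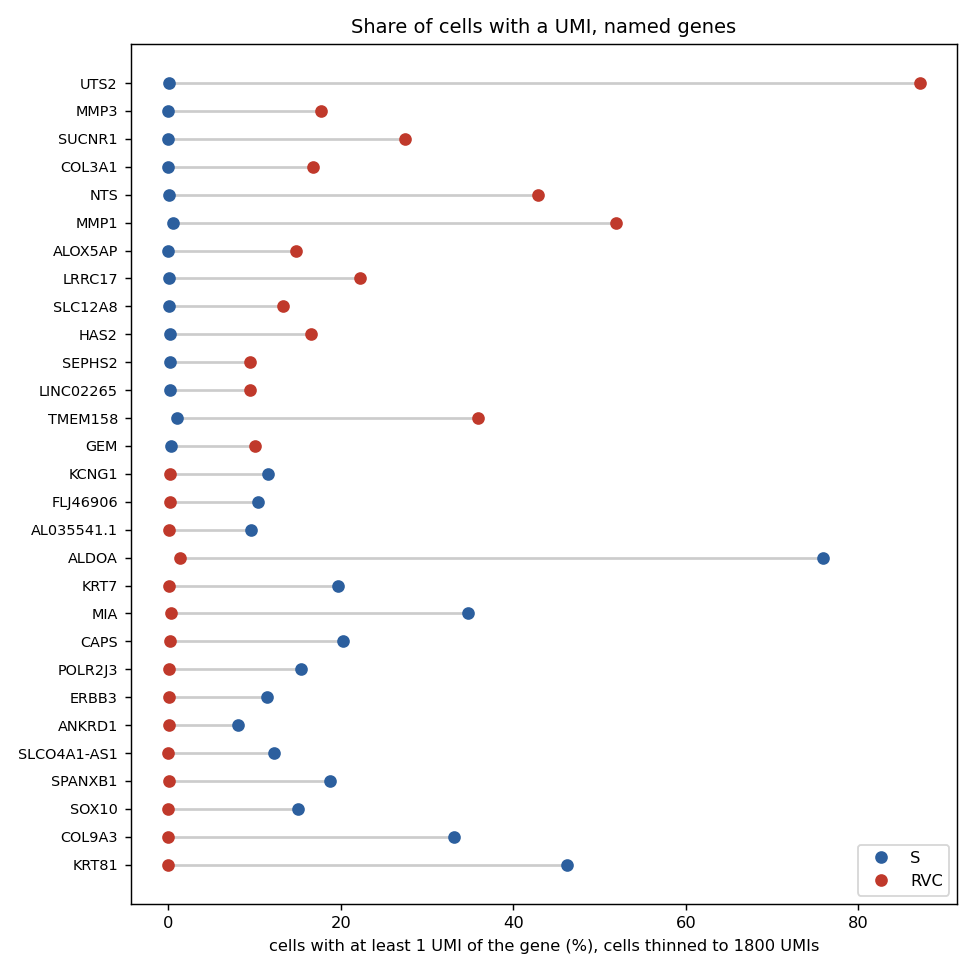
Percent of cells with at least 1 UMI of the same named genes, in S and in RVC, after thinning every cell to 1800 UMIs. UTS2 reaches 87.1% of RVC cells and MMP1 51.9%, while KRT81 and ALDOA are in 46.3% and 75.9% of S cells.

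Each list is given by its counts and median, to be set against the 24.9% of all measured genes that were at least 2-fold higher and the 24.4% that were lower, or 17.7% and 24.0% after centring. Of the 27 list medians under 1 in size, 18 had the other sign under at least 1 alternative setting. A lower or higher minimum of CPM, or smaller library sizes, changes which members count as measured, and the medians below move with it. A member that reached 10 CPM in only 1 library passed the limit through the library where it was higher, so the filter favours its being counted as different.

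Most measured genes of the lineage program were lower. Of 27 genes of the melanocyte and neural crest lineage, 8 were measured, 6 were at least 2-fold lower (75%, against 24.4% of all measured genes) and 1 higher, with a median log2 ratio of -7.28 and, after GC centring, -6.54. The median was -3.06 with a minimum of 1 CPM, -1.09 with no minimum and -4.75 without ribosomal and mitochondrial genes in the library size. Most of the 8 measured genes passed the limit through S, where they were high. The summed level went from 732 to 74.5 CPM. TFAP2A, a lineage transcription factor, had 10.5 CPM in S, 4.96 in RVC and 32.5 in RVT. The member that was higher was SOX9, a SOX factor of cartilage and neural crest stem cells, with 4.07 CPM in S and 14.04 in RVC, with 8.61 in RV and 13.7 in RVT, and RVC was 3.45-fold (95% interval 2.97 to 4.02) above S. SOX5 had 17.4 and 23.1 CPM in S and RVC. MITF, the master regulator of pigment cells, stayed under the 10 CPM limit with 9.61 CPM in S, 7.99 in RVC, 20.02 in RV and 40.999 in RVT, 1.20-fold (95% interval 1.05 to 1.39) lower in RVC than in S. Below that limit, TFAP2B had 337 UMIs in S and 0 in RVC, while the pigment enzyme TYRP1 had 5 UMIs in S and 175 in RVC.

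Genes of the mesenchymal, AXL-high state were mostly higher. Of 17 measured, 11 were at least 2-fold higher (64.7%, against 24.9% of all measured genes) and 1 lower, with a median of 1.71 (1.26 after GC centring, 1.09 with a minimum of 50 CPM and 0.90 without ribosomal and mitochondrial genes in the library size). POSTN, periostin of the matrix, had 3 UMIs in S and 703 in RVC, 399-fold (95% interval 136 to 1941). WNT5A, a noncanonical WNT ligand, had 9.17 and 89.7 CPM, with 45.9 in RVT. FN1, fibronectin, had 11.7 and 89.2 CPM, and the transcription factor ZEB2 2.37 and 14.7 CPM. AXL itself, a receptor tyrosine kinase, did not share this direction, with 95.5 CPM in S and 77.1 in RVC, with 169.6 in RV and 99.1 in RVT. The intermediate filament VIM was 4.35-fold (95% interval 4.29 to 4.41) lower in RVC, at 2440.1 and 561 CPM, and was still found in 61.7% of thinned RVC cells. The summed level of the list was 3306 CPM in S, most of it VIM, and 2131 CPM in RVC, and so differed in sign from the median.

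The known outputs of ERK were more often lower than higher in these cells, measured 24 h after the inhibitors were taken away. Of 17 measured genes of ERK output and feedback, 7 were at least 2-fold lower (41.2%, against 24.4% of all measured genes) and 2 higher, with a median of -0.63 (-0.80 after centring, 7 lower and 1 higher, and -1.03 with a minimum of 50 CPM). MYC, the growth-promoting transcription factor, had 20.6 CPM in S, 18.5 in RV, 2.05 in RVT and 0.884 in RVC. The phosphatase DUSP4 had 113 and 15.1 CPM and the feedback inhibitor SPRY1 14.8 and 2.57 CPM, with 54.9 CPM of SPRY1 in RVT. DUSP6, the phosphatase specific for ERK, had 56.1 and 66.5 CPM and FOSL1, an AP-1 subunit made in response to ERK, 163 and 117 CPM, so neither reached 2-fold. CCND1, cyclin D1, has 60.8% GC in its last 500 bases and was 3.68-fold (95% interval 3.51 to 3.85) lower, but its log2 ratio of -1.88 became 0.05 after GC centring. ETV1, an ETS factor, was 2.45-fold (95% interval 2.27 to 2.64) higher.

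Within the RAS-RAF-MEK-ERK cascade itself, 5 of 16 measured genes were at least 2-fold higher (31.2%) and 2 lower (12.5%), against 24.9% and 24.4% of all measured genes, with a median of 0.33 (0.49 after centring) that was 0.08 with TMM factors and 0.05 with median ratio factors and turned to -0.13 with a minimum of 50 CPM. The direct target of cobimetinib MAP2K1, which encodes MEK1, had 13.1 CPM in S and 35.7 in RVC, with 20.6 in RV and 31.2 in RVT, and MAP2K2, which encodes MEK2, 12.7 and 13.4 CPM in S and RVC. BRAF, the target of vemurafenib, had 3.37 and 10.5 CPM. MAPK3, which encodes ERK1, had 28.2 and 11.8 CPM, and its lower value, with 62.4% GC, became a log2 ratio of 0.67 after centring. These transcripts were at low levels, and even MAP2K1 was seen in only 2.32% of thinned S cells and 6.67% of RVC cells.

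Of 11 measured AP-1 and immediate-early genes, 4 were at least 2-fold higher (36.4%, against 24.9% of all measured genes) and 2 lower (18.2%, against 24.4%), and the median of 0.63 turned to -0.23 with a minimum of 1 CPM or none and to -0.48 with 50 CPM. FOSB had 2.94 and 41.2 CPM, FOS 8.95 and 51.2 CPM, EGR1 22.2 and 97.6 CPM and JUN 11.4 and 33.9 CPM in S and RVC. RVT was at 67.4, 67.6 and 114 CPM for the first 3, above RVC, and at 13.3 for JUN. These 4 genes encode or drive the first wave of transcription after a stimulus. JUNB, in contrast, was 8.86-fold (95% interval 8.05 to 9.78) lower.

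Receptor tyrosine kinases had no common direction. Of 12 measured, 4 were at least 2-fold higher and 2 lower, and the median of 0.08 turned to -0.18 with TMM factors, -0.21 with median ratio factors, -0.31 with a minimum of 50 CPM and -0.41 after GC centring. PDGFRA, a receptor for platelet-derived growth factors, had 0.330 CPM in S, 0.163 in RV, 1.39 in RVT and 19.8 in RVC, 59.9-fold (95% interval 38.9 to 97.3), with a UMI in 3.62% of thinned RVC cells. FGFR1 had 6.999 and 63.3 CPM, 9.05-fold (95% interval 8.17 to 10.03), INSR 5.93 and 14.02 CPM and EPHB4 4.01 and 10.5 CPM. MET and IGF1R differed little, with 15.2 and 16.5 CPM and 15.5 and 16.03 CPM, and EGFR was under 10 CPM in both, at 4.39 and 7.48. Among 9 measured growth factor ligands, 6 were at least 2-fold higher (66.7%, against 24.9% of all measured genes) and 2 lower (22.2%, against 24.4%), with a median of 1.93 (1.44 after centring) that was 0.89 with no minimum and turned to -3.82 with a minimum of 50 CPM. Of the 6 higher ligands, 5 were under 10 CPM in S and passed the limit through RVC. FGF5, a ligand of FGFR1, had 0.204 CPM in S, 0.760 in RV, 1.14 in RVT and 31.3 in RVC, 153-fold (95% interval 89.2 to 288). The ERBB3 and ERBB4 ligand NRG1 had 1.59 and 11.1 CPM, and the receptor ERBB3 was nearly absent as given above. The EGFR ligands were on the other side: TGFA had 77.9 and 5.52 CPM and AREG 30.5 and 2.95 CPM, with 105 CPM of AREG in RV. PDGFA, PDGFC and VEGFC had 3.82 and 15.8 CPM, 3.92 and 14.9 CPM and 5.14 and 21.6 CPM.

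**Figure D4:**
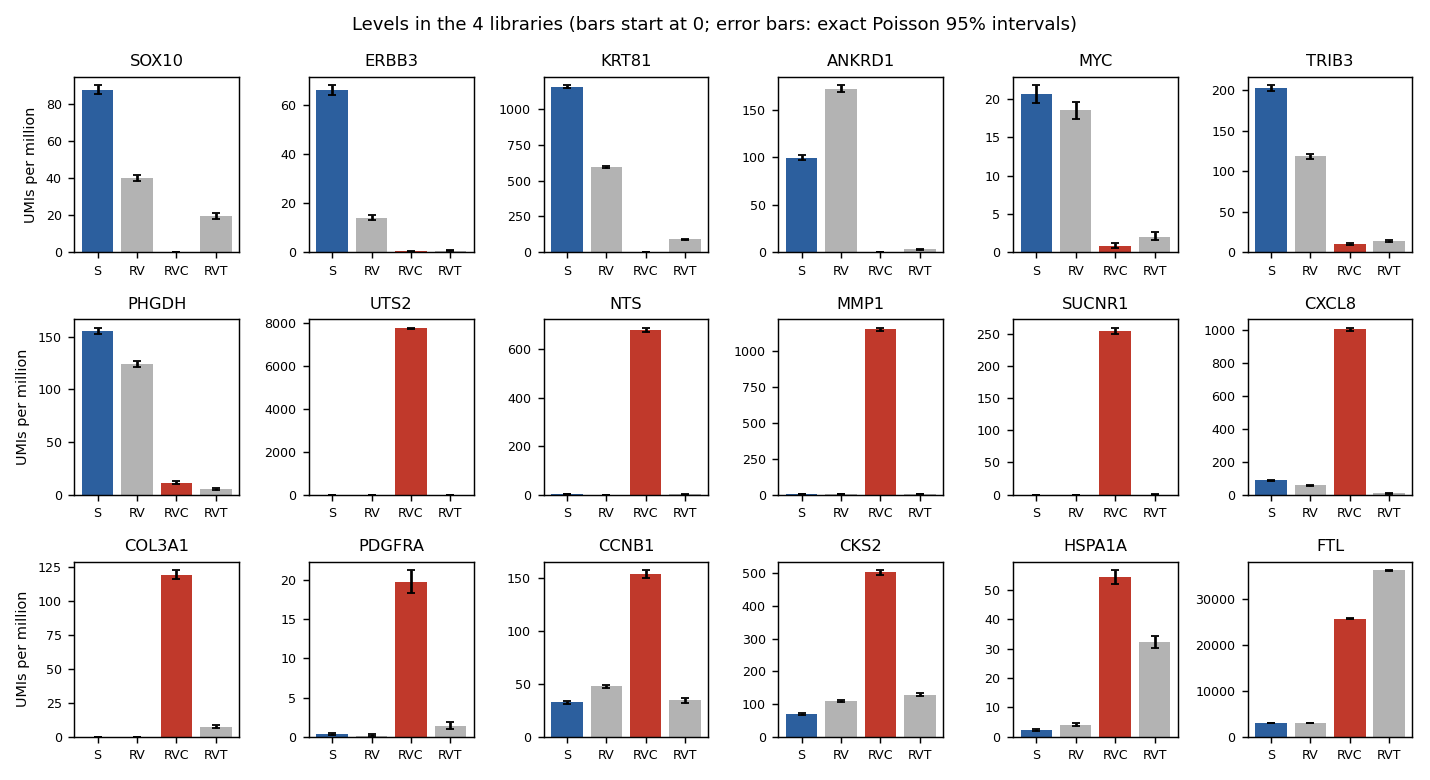
CPM of 18 genes in S, RV, RVC and RVT, 1 library each, as bars from 0 on a linear axis that differs between genes, with exact Poisson 95% intervals that cover counting error only. SUCNR1 has UMIs in RVC only, CXCL8 is at 1006 CPM in RVC and 6.94 in RVT, and FTL is high in RVC and RVT alike.

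Among genes of G2 and mitosis none was at least 2-fold lower. Of 34 measured, 23 were at least 2-fold higher in RVC (67.6%, against 24.9% of all measured genes) and none lower, both before and after GC centring, with a median of 1.71 (1.25 after centring and at least 1.16 with every scaling tried), and their summed level was 1229 CPM in S and 3288 in RVC. CKS2, the CDK-binding protein whose promoter is printed here, had 69.8 CPM in S, 110.2 in RV, 129 in RVT and 502 in RVC, 7.20-fold (95% interval 6.96 to 7.44), and was in 50.3% of thinned RVC cells against 9.89% of S cells. BUB1B of the spindle checkpoint had 4.62 and 28.1 CPM, DLGAP5 of the spindle 4.45 and 24.1 CPM, NUSAP1 27.5 and 144 CPM and the kinesin KIF20B 15.6 and 76.3 CPM. CCNB1, cyclin B1, had 32.7, 47.6, 154 and 34.5 CPM in S, RV, RVC and RVT, and MKI67, the proliferation marker, 28.5, 34.5, 70.7 and 23.7. RVC was the highest of the 4 libraries for all of these 7 genes. Below S, though by less than 2-fold, were CENPA with 16.1 and 15.2 CPM, CDC20, which activates the anaphase-promoting complex, with 69.3 and 35.2 CPM, the kinase PLK1 with 30.3 and 16.4 CPM and UBE2C with 139.7 and 107 CPM. ARL6IP1 was nearly as high in RVT (171 CPM) as in RVC (183).

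Among the G1/S and DNA replication genes fewer reached 2-fold. Of 25 measured, 5 were at least 2-fold higher and 2 lower, with a median of 0.65 (0.24 after centring) that turned to -0.16 with a minimum of 50 CPM, and the sum was 889 CPM in S and 889 in RVC. The replication factor MCM10 had 6.07 and 19.8 CPM, and the large subunit of ribonucleotide reductase, RRM1, 21.9 and 53.9 CPM. DUT, which removes dUTP, was 4.84-fold (95% interval 4.57 to 5.13) lower. Of 12 measured G1 cyclins, CDKs, their inhibitors and RB genes, 2 were higher and 3 lower, and the median of 0.22 was 0.00 with TMM factors and turned to -0.26 without ribosomal and mitochondrial genes in the library size, to -0.20 with median ratio factors and to -1.03 with a minimum of 50 CPM. CCND3, cyclin D3, had 9.33 and 34.4 CPM and the CDK4/6 inhibitor CDKN2C 13.7 and 53.3 CPM, whereas CDK4 had 280.4 and 138 CPM. CDKN1A, the p53-driven CDK inhibitor, was highest in RV (246 CPM), with 101.4 and 133 CPM in S and RVC.

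The p53 targets had 8 of 21 measured genes at least 2-fold lower (38.1%, against 24.4% of all measured genes) and 2 higher, with a median of -0.48 (-0.65 after centring, where 7 were lower, against 24.0% of all, and 1 higher). GADD45A, a growth arrest protein, had 75.02 and 12.97 CPM and the kinase PLK2 29.9 and 6.43 CPM, while MDM2, which marks p53 for degradation, had 23.3 and 23.1 CPM. FAS, the death receptor, was 3.35-fold (95% interval 2.96 to 3.79) higher. In the BCL2 family 6 of 7 measured genes were at least 2-fold lower (85.7%, against 24.4% of all measured genes) and none higher, with a median of -1.79 (5 lower, none higher and -1.30 after centring). They included genes that favour and genes that oppose cell death: BAX (118 and 34.1 CPM) and BAD (79.9 and 10.3 CPM) on the first side and BCL2L1 (23.04 and 3.19 CPM), which encodes BCL-XL, on the other. BAX, with 58.2% GC, had a log2 ratio of 0.14 after centring, against -1.79 before. MCL1, which opposes cell death, had 93.1 and 69.1 CPM.

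Inflammatory genes split, with CXCL8, CCL2 and IL6 higher in RVC and IL24, CXCL3 and the interleukin 1 genes lower. Of 17 measured, 5 were at least 2-fold higher and 6 lower, both before and after centring, with a median of -0.23 (-0.44 after centring). The median was 0.01 with a minimum of 1 CPM and 0.02 with none, but -0.52 with TMM factors and -0.55 with median ratio factors. The sum went from 745 to 1477 CPM, of which CXCL8 held most in RVC. CXCL8, whose promoter is shown above, had 85.9 CPM in S, 55.4 in RV, 6.94 in RVT and 1006 in RVC, 11.7-fold (95% interval 11.4 to 12.1), with a UMI in 63.8% of thinned RVC cells against 10.2% of S cells. CCL2, the monocyte chemokine, had 11.2 and 77.99 CPM with 7.04 CPM in RVT, and the cytokine IL6 3.60 and 23.7 CPM. TNFAIP3, which shuts off NF-kB signalling, had 2.11 and 15.8 CPM. The lower genes were IL24 (155 and 6.81 CPM), CXCL3 (43.1 and 4.96 CPM), the interleukin 1 genes IL1B (20.8 and 3.30 CPM) and IL1A (13.3 and 2.01 CPM), and the NF-kB subunits NFKB1 (74.01 and 21.7 CPM) and RELB (21.97 and 8.04 CPM). CXCL1, a neighbour of CXCL8 in the chemokine cluster, did not differ beyond counting error, with 139 and 143 CPM 1.03-fold (95% interval 0.993 to 1.06). PTGS2, the inducible cyclooxygenase, was under the limit, with 2.78 CPM in S and 3.81 in RVC, and 49.4 in RVT.

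Of 14 measured interferon response genes, 6 were at least 2-fold higher and 3 lower (7 and 2 after centring), with a median of 0.92. The membrane protein IFITM2 had 55.9 and 336 CPM, with 258 CPM in RVT. ISG20 and ISG15 were lower, with 115 and 9.54 CPM and 27.04 and 4.88 CPM. Antigen presentation is divided into MHC class I, which shows peptides from inside the cell, and class II, which shows peptides taken up from outside. Of 12 measured genes of MHC class I presentation, 3 were at least 2-fold higher (25%, near the 24.9% of all measured genes) and 1 lower, with a median of 0.47. After centring 4 were higher, against 17.7% of all measured genes, and 1 lower, with a median of 0.50. The median was 0.18 without ribosomal and mitochondrial genes in the library size and 1.03 when centred on whole transcripts. For example, HLA-B had 114 and 429.8 CPM, with 619.6 in RVT, and the immunoproteasome subunit PSMB8 45.8 and 106 CPM. The sum of the class I list was 1668 CPM in S, 4382 in RVC and 5649 in RVT, most of it on other members. Of 9 measured genes of MHC class II presentation, 5 were at least 2-fold lower (55.6%, against 24.4% of all measured genes) and 1 higher, with a median of -2.31 (-1.76 after centring) and sums of 1129 and 338 CPM. HLA-DRA had 111 CPM in S and 12.9 in RVC, with 26.9 in RV and 83.7 in RVT, so that of the resistant cultures RVT was nearest to S and RVC farthest from it. Reads of the HLA genes can be split between near-identical alleles and copies, and HLA-DRB5 and HLA-DRB1 in particular are uncertain. The member that was higher was CTSS, cathepsin S of the lysosome, with 6.53 and 17.7 CPM.

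In the integrated stress and unfolded protein response, no gene was at least 2-fold higher. Of 22 measured genes, 15 were at least 2-fold lower in RVC (68.2%, against 24.4% of all measured genes) and none higher, with a median of -1.79 (14 lower, none higher and a median of -1.54 after centring), and the sum was 2129 CPM in S and 987 in RVC. ATF4, the transcription factor made when translation initiation slows, had 273 CPM in S, 216 in RV, 68.99 in RVT and 40.7 in RVC, 6.70-fold (95% interval 6.36 to 7.07). Its known target TRIB3, a pseudokinase, had 202 and 9.997 CPM, 20.2-fold (95% interval 18.2 to 22.5). The serine synthesis enzymes PHGDH and PSAT1 had 155 and 11.4 CPM and 123 and 19.7 CPM, and asparagine synthetase ASNS, with the promoter shown above, 67.4 and 8.58 CPM. In thinned cells, TRIB3 was seen in 27.2% of S and 1.94% of RVC cells, and ATF4 in 39.2% and 6.32%. The chaperones of the endoplasmic reticulum did not share the size of this difference: HSPA5 had 64.9 and 44.2 CPM, HSP90B1 189.8 and 219 CPM and CALR 186 and 287 CPM, and all 3 were higher in RVT (109.6, 389 and 459 CPM).

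Heat shock proteins lay the other way. Of 14 measured, 9 were at least 2-fold higher (64.3%, against 24.9% of all measured genes) and 1 lower, with a median of 1.35 (7 higher, none lower and 0.98 after centring), and the sum went from 2819.9 to 5797 CPM. The inducible HSPA1A had 2.19 CPM in S and 54.3 in RVC, with 4.02 in RV and 32.3 in RVT, and RVC was 24.8-fold (95% interval 20.9 to 29.7) above S. Its near-identical neighbour HSPA1B had 0.928 and 19.8 CPM in S and RVC, and the counting could split reads between the 2 genes. The mitochondrial co-chaperone HSPE1 had 287 and 1183 CPM and the cytosolic chaperone HSP90AA1 336 and 1157 CPM. HSPB1 was lower at 487 and 205 CPM, but has 63.8% GC, and its log2 ratio was 0.68 after centring.

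Of 18 measured NRF2 antioxidant genes, 6 were at least 2-fold higher and 4 lower, and the median of 0.19 turned to -0.05 with TMM factors, -0.00 without ribosomal and mitochondrial genes in the library size, -0.08 with median ratio factors and to -0.17 with a minimum of 50 CPM. The ferritin chains went apart. The light chain FTL had 3016 CPM in S and 25699.7 in RVC, with 2949.9 in RV and 36217 in RVT. In RVC it was 8.52-fold (95% interval 8.48 to 8.56) above S and made up most of the sum of the list, which was 10373 and 31179 CPM. The heavy chain FTH1 had 4435 CPM in S and 1267 in RVC, 3.50-fold (95% interval 3.47 to 3.53) lower, with 6007 in RV and 4654 in RVT. Ferritin genes have many processed pseudogenes, with which reads can be shared. TXNRD1, thioredoxin reductase, had 25.9 and 137 CPM, GCLM of glutathione synthesis 2.77 and 29.2 CPM and HMOX1, heme oxygenase, 1.87 and 13.2 CPM. GPX4, which removes lipid peroxides, was 15.4-fold (95% interval 14.4 to 16.6) lower. Of the metallothioneins 2 were measured, MT2A with 2810.0 and 1305 CPM and MT1X with 95.5 and 505 CPM, whose reads can be split between members of the family.

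The metabolic, lysosome and autophagy groups had medians between -0.12 and 0.54. Of 26 measured glycolysis and hypoxia genes, 6 were at least 2-fold higher and 2 lower, with a median of 0.54 (0.34 after centring): TPI1, PGK1 and ENO2 had 849.9 and 2441 CPM, 232 and 618 CPM and 17.5 and 70.2 CPM, and GAPDH 11081 and 7866 CPM. Of 45 measured nuclear genes of oxidative phosphorylation, 10 were higher and 11 lower, with a median of 0.36. After centring 8 were higher and 13 lower, with a median of 0.09, and the median was 0.15 with TMM factors and 0.12 with median ratio factors. The genes ran from UQCR10 of complex III (232 and 974 CPM) to COX5A of complex IV (518 and 56.7 CPM). Of the 13 mitochondrially encoded genes, 2 were higher and 1 lower, and the median of 0.06 turned to -0.16 with TMM factors, -0.14 without ribosomal and mitochondrial genes in the library size, -0.19 with median ratio factors and -0.28 after centring. MT-CO3 had 3668 and 7391 CPM and MT-ND3 2004 and 1295 CPM. Of 21 measured genes of cholesterol and fatty acid synthesis, 8 were higher and 3 lower, with a median of 0.42 that came to 0.04 after centring and to -0.00 with median ratio factors. ACLY, which makes cytosolic acetyl-CoA, had 26.7 and 104 CPM. The lysosome and autophagy genes had 6 of 25 higher and 7 lower, with a median of -0.12 that was 0.06 after centring, GLA with 7.19 and 34.5 CPM at the higher and MAP1LC3B with 89.7 and 26.9 CPM at the lower end.

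Genes of the extracellular matrix went in both directions. Of 18 measured collagens and matrix genes, 7 were at least 2-fold higher and 4 lower, and the median of -0.08 turned to 0.79 after GC centring, where 9 were higher and 4 lower, and was also above 0 with every cell weighted equally (0.09) and with minimums of 1 CPM (0.52), 50 CPM (1.25) and none (0.12). Beside COL3A1, the small proteoglycans LUM and DCN had 0.110 and 21.9 CPM and 0.252 and 14.3 CPM, with 21.8 and 2.64 CPM in RVT, and COL5A1 and COL5A2 had 3.92 and 24.2 CPM and 10.003 and 44.2 CPM. SPARC, a matrix protein that binds collagen, had 321 CPM in S and 142 in RVC, with 257 in RV and 1277 in RVT, and THBS1, thrombospondin 1, 32.4 in S and 10.3 in RVC, with 74.7 and 649 in RV and RVT. RVC was the lowest and RVT the highest library for both. Of 14 measured matrix proteases and inhibitors, 7 were higher and 2 lower, with a median of 0.95 (1.27 after centring). Beside MMP1 and MMP3, the gelatinase MMP2 had 45.5 and 193 CPM and its activator MMP14 3.24 and 17.4 CPM, and the inhibitors TIMP1 and TIMP2 had 948 and 1897 CPM and 16.9 and 79.2 CPM. The protease inhibitor SERPINE2 was 4.91-fold (95% interval 4.79 to 5.03) lower.

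Integrins had 3 of 10 measured genes higher and 3 lower, and the median of 0.46 turned to -0.11 after GC centring. The collagen receptor subunit ITGA2 had 17.7 and 154 CPM, 8.69-fold (95% interval 8.15 to 9.27), and ITGAV 8.56 and 40.95 CPM. ITGB4, of the laminin receptor in hemidesmosomes, had 14.6 and 0.375 CPM, and ITGB8 19.8 and 1.07 CPM, with 10.2 and 20.1 CPM in RVT. Of 13 measured genes of the TGF-beta and BMP pathways, 5 were higher and 5 lower, and the median of 0.43 turned to -0.20 after centring and to -1.90 with a minimum of 50 CPM. The ligand TGFB2 had 0.865 CPM in S and 18.5 in RVC, with 0.651 in RV and 104 in RVT. The BMP targets ID1 and ID3 had 228 and 29.5 CPM and 248 and 18.98 CPM, whereas RVT had 267 and 395 CPM, and ID2 had 2.74 and 16.6 CPM. Of 17 measured YAP-TEAD genes, 6 were higher and 3 lower, and the median of 0.11 turned to -0.11 with TMM factors, -0.09 without ribosomal and mitochondrial genes, -0.14 with median ratio factors, -0.18 with a minimum of 50 CPM and -0.49 after centring. PTPN14 had 22.7 and 107 CPM and TEAD1 5.46 and 19.8 CPM, against ANKRD1 on the other side and CTGF (7.88 and 11.6 CPM) and CYR61 (37.2 and 34.1 CPM) between.

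The actin cytoskeleton genes had 10 of 27 higher and 8 lower, with a median of 0.21 that turned to -0.00 with TMM factors, -0.03 with median ratio factors and -0.02 with library sizes without ribosomal and mitochondrial genes. Vinculin, VCL, had 22.6 and 151 CPM, the myosin light chain MYL6 582 and 3338 CPM and thymosin beta 4, TMSB4X, 478 and 2559.6 CPM, whereas profilin, PFN1, had 2270.1 and 289 CPM and tropomyosin 2, TPM2, 501 and 122 CPM. PFN1 was in 96.8% of thinned S cells and 40.4% of RVC cells. Of 6 measured keratins, 5 were lower and none higher (5 and 1 after centring), with a median of -2.64 that was -1.36 with a minimum of 1 CPM, -0.82 with none and -1.73 without ribosomal and mitochondrial genes in the library size, and sums of 2509 and 318 CPM. KRT18 had 769 CPM in S and 57.7 in RVC, with 1551 in RV and 139 in RVT, while its partner KRT8 had 131 and 144 CPM in S and RVC. Of 10 measured S100 genes, 3 were lower (30%, near the 24.4% of all measured genes) and none higher, with a median of -0.72 (3 lower, 1 higher and -0.16 after centring). S100A6, the most abundant, had 9377 and 5701 CPM and S100A10, which binds annexin A2, 989 and 254 CPM.

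Among the groups of translation, splicing and protein turnover, the ribosomal proteins held by far the most UMIs. Ribosomal proteins took 450619 CPM in S and 371181 CPM in RVC. Of 82 measured, 21 were at least 2-fold lower (25.6%, near the 24.4% of all measured genes) and 5 higher, with a median of -0.07 (-0.32 after centring, 23 lower and 4 higher). RPL13 and RPS2 were low in RVC and RVT alike, RPL13 with 10027, 10132, 867 and 1393 CPM in S, RV, RVC and RVT and RPS2 with 16032, 16440.3, 1408 and 2113. Ribosomal protein genes have many processed pseudogenes, and reads can be split between these copies. Of 30 measured proteasome subunits, 15 were higher (50%, against 24.9% of all measured genes) and 4 lower (13.3%, against 24.4%), with a median of 1.02 (11, 4 and 0.63 after centring), PSMD1 with 33.5 and 109 CPM and PSMA7 with 1329.9 and 413 CPM. Of 30 measured splicing factors, 9 were higher and 2 lower, but none higher and 4 lower after centring, where the median of 0.32 became -0.07. Of 23 measured MYC targets and ribosome biogenesis genes, 3 were higher and 6 lower, with a median of -0.19 that was 0.03 when centred on the GC content of whole transcripts. Nucleolin, NCL, had 354 and 803 CPM and nucleophosmin, NPM1, 2632 and 1704 CPM.

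Among 11 measured cancer-testis antigens, 6 were at least 2-fold higher and 3 lower, with a median of 1.06 (0.58 and 2 higher after centring). MAGEA4 had 249 CPM in S and 762 in RVC, with 311 in RV and 559 in RVT. The SPANX and GAGE genes were those that were lower, with SPANXC at 2197 UMIs in S and 2 in RVC. Members of these families are near copies, between which the counting can split reads. Of the drug efflux transporters 2 were measured, both through RVC, where they were higher, with a median of 2.31 that was 1.28 with a minimum of 1 CPM, 1.25 with none and 1.03 without ribosomal and mitochondrial genes in the library size. ABCC2 had 1.04 CPM in S, 11.02 in RVC and 21.99 in RVT, and ABCC3 had 8.996, 20.96 and 101.2. ABCB1 was under the limit at 0.629 and 2.60 CPM. Of the pluripotency factors none reached 10 CPM in either library, and their sum was 17.8 CPM in S and 20.6 in RVC. Of 12 genes that the study names for its cluster C6, 7 were measured and all 7 were at least 2-fold higher (6 after centring), with a median of 8.55 that was 1.89 with a minimum of 1 CPM and 1.37 with none. The study chose them on these libraries, so their direction is no independent evidence. Of the nuclear noncoding RNAs, NEAT1 had 466, 773, 1454 and 7449 CPM in S, RV, RVC and RVT, MALAT1 11599, 8855, 24911 and 20046, and 3 of 4 measured were higher, whereas after centring 1 was higher and 1 lower.

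**Figure D5:**
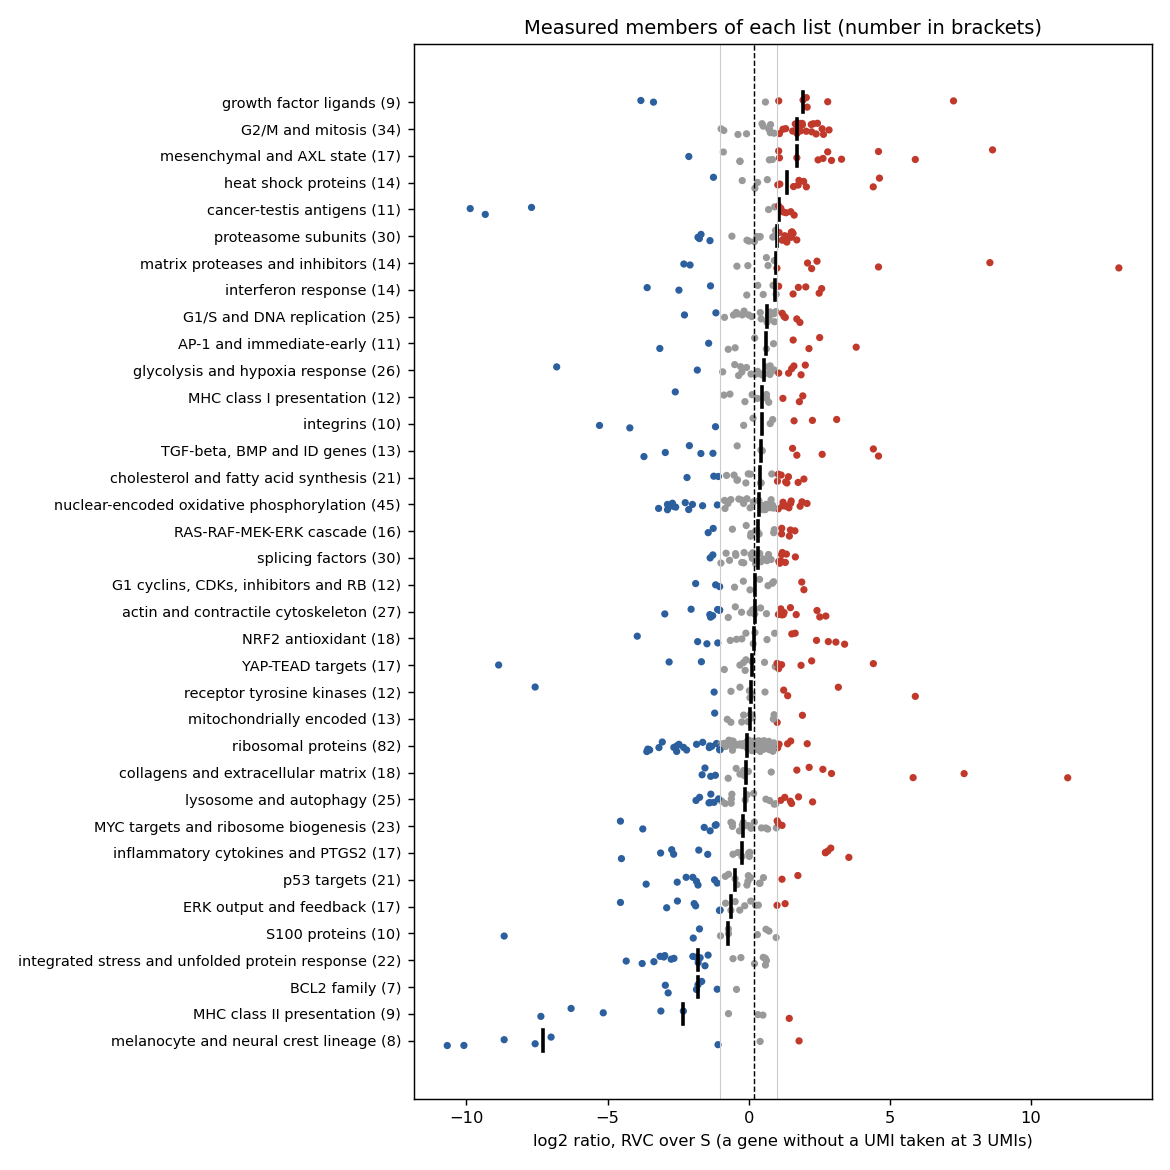
Log2 ratio of RVC over S for every measured member (points, red at least 2-fold higher, blue at least 2-fold lower, grey between) of the lists with 7 or more measured members, the list chosen on these libraries left out, with the list's median (bar) and the median of all measured genes, 0.19 (dashed line). Points of G2/M and mitosis lie above the dashed line for the most part, with a median of 1.71, and those of the integrated stress and unfolded protein response below it, with a median of -1.79.

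Markers of other cell types were checked in both libraries. Fibroblast markers summed to 3.13 CPM in S and 191 CPM in RVC. Of 12, 4 were measured and all 4 were higher (COL3A1, LUM, PDGFRA and DCN), against 24.9% of all measured genes. All 4 were under 10 CPM in S and passed the limit through RVC, so the filter fixed that they counted as higher or nearly so. The median of 6.77 was 4.25 with no minimum. In RVC 3 of the 12 had 3 UMIs or fewer, among them THY1 with 3 UMIs and DPT with 0 UMIs, and COL1A2 had 9 UMIs. Markers under 10 CPM that are not named here held the rest of the sum, so the low markers do not stand for the whole list. The 4 measured genes are also matrix and receptor genes of the lists above, and the part of any other cell in those results was not tested. Of 12 leukocyte markers 1 was measured, CD68 of the lysosome, with 34.9 and 152 CPM. The pan-leukocyte gene PTPRC had 0 UMIs in both libraries, and the list summed to 35.7 and 156 CPM. Epithelial markers summed to 910.0 and 212 CPM, nearly all of it KRT8 and KRT18, with EPCAM at 2 and 5 UMIs and CDH1 at 0 UMIs in both. Endothelial and erythroid markers summed to 0.991 and 1.26 CPM.

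By chromosome, the GC-centred log2 ratios of RVC over S stood out on chromosome 20. Its 207 measured genes had a median of -0.81, with 44.0% at least 2-fold lower and 5.80% at least 2-fold higher after centring, against 24.0% and 17.7% of all measured genes. The same median was -0.14 in RVT over S and -0.03 in RV over S. The other medians lay between -0.43 on chromosome 18, with 92 genes, and 0.28 on chromosome 14, with 201. Among 6621 windows of 20 neighbouring measured genes, 4 of the 8 lowest that do not overlap lay on chromosome 20, and the lowest ran from 5750393 to 18766644, from SHLD1 to DTD1, with a median of -1.69 and 5 of 20 genes above 0. The other 3 of chromosome 20 ran from 362835 to 3828837, from 44496221 to 46689779 and from 59033145 to 63708025, with medians of -1.49, -1.20 and -1.37, and the first begins with TRIB3. Not centred, the medians of these 4 windows, in the order given, were -1.22, -1.41, -1.19 and -1.75 in RVC over S. In RVT over S, also not centred, they were -0.90, -1.05, -1.10 and -1.76. Of the genes furthest below S given above, COL9A3, SLCO4A1-AS1, AL035541.1 and KCNG1 also lie on chromosome 20. In that order they had 0.134, 0, 0.563 and 1.34 CPM in RVC and 28.2, 0.104, 0.104 and 1.39 CPM in RVT. All except COL9A3 were thus about as low or lower in RVT. COL9A3 and SLCO4A1-AS1 lie within the window that begins at 59033145. What part this position has in the low levels of these genes and of TRIB3 was not tested.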

How the data were processed

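Single-cell data of 4 libraries of A375 cells were used, with S and RVC compared and RV and RVT given beside them. By the submitters' processing notes, the authors demultiplexed with bcl2fastq 2.20.0.422 and counted with Cell Ranger on GRCh38, and deposited UMI counts per gene and cell, not normalised. The Cell Ranger version and the annotations are not given in the sources used here. From the counts, barcodes with at least 500 genes and at most 20% mitochondrial UMIs were kept and summed per library to CPM. Genes with 0 UMIs entered ratios at 3 UMIs. Ratios have exact conditional binomial 95% intervals, and levels exact Poisson intervals. With 1 library per condition no p-value was computed. Log2 ratios were centred in 10 bins of GC content, and cells were thinned to 1800 UMIs. Doublets were kept. Scrublet's own threshold marked 3 S and 1 RVC cells, and whether it finds the doublets of a single cell line was not tested. As an alternative the cells with the highest scores, 359 in S and 687 in RVC, were removed.

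Gene names and coordinates came from GENCODE 29 (32913 of 32991 shared identifiers), and promoters from RefSeq on GRCh38.p14. The genes named are the 15 furthest above and the 15 furthest below S by the ratio of CPM among genes that reached 50 CPM in S or RVC, the genes with 0 UMIs in 1 library, and members of 46 gene lists, for which the 3 largest differences each way come first. Some of these genes are not reported here. The members and lists were chosen with earlier results of these data known. Alternatives were other cell filters, expression minimums, scalings, GC bins from whole transcripts, a log2(CPM + 1) scale, equal weight per cell, and, chosen after seeing the data, leaving out genes that overlap an identifier of 1 table. Counts of 5741 genes with 200 changed 4-fold were simulated for RVC over S as Poisson draws from the S profile. In these, 100% of the changed genes and 0% of the others were called, and intervals covered the true ratio for 95.33% of genes. An added trend, linear in GC content, led to 3.56% of unchanged genes being called before centring and 0% after. This checks the computation only. It cannot show how well centring removes the trend of these libraries, nor that the intervals cover more than counting error. The software was Python 3.11.15, numpy 2.4.6, pandas 2.3.3, scipy 1.17.1, scanpy 1.11.5, matplotlib 3.10.9, R 4.3.3 and, for TMM factors only, edgeR 4.0.16.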

Additional observations from a re-analysis of the deposited data

Results flagged for a closer look

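Counts on identifiers that only 1 of the annotations lists stand outside the comparison and were above the level that a count of 0 allows. In S, 0.110% of the UMIs lay on the 703 identifiers of its own table only, most of them on GPX1, which encodes a glutathione peroxidase, with 499 CPM, and on AC090498.1 with 178 CPM. In RVC, 0.0423% lay on 547 identifiers of its own table only, among them an identifier of POLR2J3 with 166 CPM and AC005280.2 with 34.7 CPM. GPX1 is a selenoprotein and a known member of the antioxidant genes described in the report, and its level in RVC was not analysed here.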

How the results depend on the processing

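With 1 library per condition, culture and library cannot be told apart and leaving out a replicate was not possible. No paired analysis was possible because each condition has 1 library and the result comes from no test. The number of genes at least 2-fold higher and lower in RVC than in S went from 1761 and 1723 to 3220 and 2958 with a minimum of 1 CPM, to 593 and 754 with a minimum of 50 CPM, and to 6342 and 4250 with no minimum, because 12962, 2378 and 21662 genes were then counted. Under the other 12 settings both counts stayed within 1.5 times. Of 44 list medians, 17 were at least 1 in size, and 2 of these changed sign: that of the growth factor ligands was -3.82 with the minimum of 50 CPM, and that of the epithelial markers 0.14 with no minimum, where other members entered. Of the 27 smaller medians 18 changed sign in at least 1 of 15 settings, so their direction is not settled. Of the 30 genes furthest from S, 28 kept their direction in all 15, and the other 2, ALDOA and POLR2J3, kept it in every setting except the removal of genes that overlap an identifier of only 1 table, chosen after seeing the data, which leaves them out. Without the overlapping genes, 1748 were higher and 1692 lower. Shares of cells depend on the thinning, most of all in S, whose cells were deeper. With cells not thinned, the share of S cells with a UMI went from 15.02% to 50.2% for SOX10 and from 33.2% to 77.3% for COL9A3.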
